A study of Mus musculus with 12 samples.

Results

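The transcripts of 10 neuronal regulators of RNA splicing and RNA stability were examined: Rbfox1, Rbfox2, Rbfox3, Nova1, Nova2, Elavl2, Elavl3, Elavl4, Ptbp2 and Mbnl2. They were taken by symbol from a gene count table of 24062 symbols, and all 10 had a row and enough reads to be among the 15440 genes tested. The libraries were made from RNA of the cortex of 9-month-old mice, with 3 libraries for each of 4 genotypes. WT mice carried neither the tau transgene nor a mutant Tia1 allele. Tia1+/- mice had 1 mutant allele of the RNA-binding protein gene Tia1, which the methods describe as frame-shifted and not coding for TIA1 protein. PS19 mice (P301S Tia1+/+) carried human tau with the P301S mutation, and P301S Tia1+/- mice carried the transgene and the mutant allele. The study asked how tauopathy and lower TIA1 alter RNA metabolism.

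The groups are limited as models in several ways. In PS19 mice the transgene is 1 human tau isoform driven by the prion protein promoter, and no tau-transgenic mice with end-stage symptoms were used. The mutant Tia1 allele came from a line backcrossed to C57BL/6J, while the PS19 line is on a mixed B6 and C3 background. The tau-transgenic mice with and without this allele were littermates from crosses of these lines. The genotype entries of the libraries titled Tia1+/- and P301S Tia1+/- contradicted the titles, each giving the genotype of the other group; here a group name stands for the libraries titled so. If the genotype entries were right instead, the values of these groups would be exchanged.

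Total counts ranged from 11978962 to 19146484 per library. The level of Tia1 itself did not separate the groups. It was 75.4 to 93.8 CPM (read counts scaled to library size) in WT, 61.4 to 79.8 in Tia1+/-, 70.8 to 77.9 in PS19 and 72.6 to 77.8 in P301S Tia1+/-, and the log2 difference was -0.27 ± 0.12 (SE) between Tia1+/- and WT and 0.02 ± 0.12 between P301S Tia1+/- and PS19 (edgeR quasi-likelihood test, Benjamini-Hochberg adjusted p = 0.239 and 0.934). Mapt, the mouse tau gene, stood at 256 to 413 CPM in WT, 344 to 502 in Tia1+/-, 439 to 462 in PS19 and 336 to 357 in P301S Tia1+/-, and it was not tested how many reads of the human transgene were counted in it. The libraries titled P301S Tia1+/- thus lay below all PS19 libraries in Mapt and within the WT range. Xist had 0 to 13 counts in the WT and PS19 libraries and 3304 to 5693 in the Tia1+/- and P301S Tia1+/- libraries, and the summed counts of 4 Y-linked genes were 3363 to 4944 and 0 to 5, although the methods state that male mice were used. In every comparison across the Tia1 label, the label and sex-linked expression therefore cannot be told apart. Regional composition differed too. The summed level of 9 olfactory bulb markers was 1120 CPM in WT replicate 1 and 700.0 to 840.0 CPM in P301S Tia1+/-, against 6.96 to 161 CPM in the other 8 libraries, and that of 9 striatal markers was 2580 CPM in Tia1+/- replicate 3 against 205 to 431 CPM in the other 11 libraries. In bulk tissue, fewer cells of a type and less RNA per cell cannot be told apart.

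All of these regulators are RNA-binding proteins that neurons use to set which exons enter an mRNA and how long that mRNA lasts. RBFOX and NOVA proteins bind short sequence elements in introns near alternative exons and promote inclusion or skipping depending on where they bind, and many of their exons lie in transcripts of synaptic and channel proteins. The neuronal ELAVL proteins, also called Hu proteins, bind U-rich and AU-rich elements, stabilise mRNAs and also act on splicing. PTBP2 mostly represses exons that are used in mature neurons, and MBNL2 promotes the adult pattern of splicing in brain.

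In GENCODE M21 (GRCm38) all 10 are protein-coding genes on 9 chromosomes. Rbfox1 spans chr16:5885355-7411526, the longest of them, and Elavl3 chr9:22015005-22052023, the shortest. Elavl4 lies at chr4:110203722-110351909, Elavl2 at chr4:91250763-91400785, Nova1 at chr12:46694517-46818929 and Mbnl2 at chr14:120275669-120431697.

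The members were expressed at very different levels. Levels between genes are compared here as CPM per kilobase of exonic sequence, as the mean over the 12 libraries. Rbfox1 was highest, at 61.0 ± 11.2 (SD, n = 12), followed by Rbfox2 at 36.0 ± 1.86 and Mbnl2 at 25.8 ± 3.98. In all 12 libraries Rbfox1 lay above Rbfox2 and Rbfox2 above Mbnl2. Elavl4 (21.3 ± 6.18), Elavl3 (19.2 ± 1.09), Rbfox3 (16.5 ± 3.23), Ptbp2 (16.0 ± 1.35) and Elavl2 (12.4 ± 2.89) formed a middle group in which each pair of neighbours overlapped. Nova1 (5.49 ± 1.42) and Nova2 (2.02 ± 0.453) were lowest, each below its upper neighbour in all 12 libraries. When the longest annotated transcript was used as the length in place of the union of exons, Mbnl2 passed Rbfox2, Ptbp2 moved up to the fourth place, Elavl4 moved behind Rbfox3 and the order from Elavl2 down was kept. The lowest count of a member in a library was 181 (Nova2 in WT replicate 2), for which counting error alone gives an SD of 7.43% of the value, and the highest was 5898 (Rbfox2 in PS19 replicate 1), for which it gives 1.3%.

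Within families, 1 paralog carried most of the RBFOX and NOVA signal. Rbfox1 made up 54.5% ± 4.74 (SD, n = 3) of the summed level per kilobase of the 3 Rbfox genes in WT, and Rbfox3, which encodes the NeuN antigen of mature neurons, made up 13.2% ± 1.63. Nova1 made up 74.9% ± 9.57 of the summed level of the NOVA genes in WT. The Elavl genes were more even, with Elavl2 at 22.4% ± 3.24, Elavl3 at 37.0% ± 11 and Elavl4 at 40.6% ± 7.84 of their summed level in WT.

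The members also differed in how much they varied. The SD of log2 CPM over the 12 libraries was 0.08 for Rbfox2, 0.08 for Elavl3 and 0.12 for Ptbp2, and 4.2%, 6.07% and 28.1% of the genes of like mean level varied less than these. At the other end stood Elavl4 at 0.45, Nova1 at 0.41 and Elavl2 at 0.36, with 93.1%, 90.2% and 88.7% of like genes varying less. Over the 12 libraries Elavl4 spanned 71.6 to 160.0 CPM, and Rbfox2 spanned 265 to 313 CPM. Among the Elavl paralogs, Elavl3 thus varied little and Elavl2 and Elavl4 varied much.

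**Figure D1:**
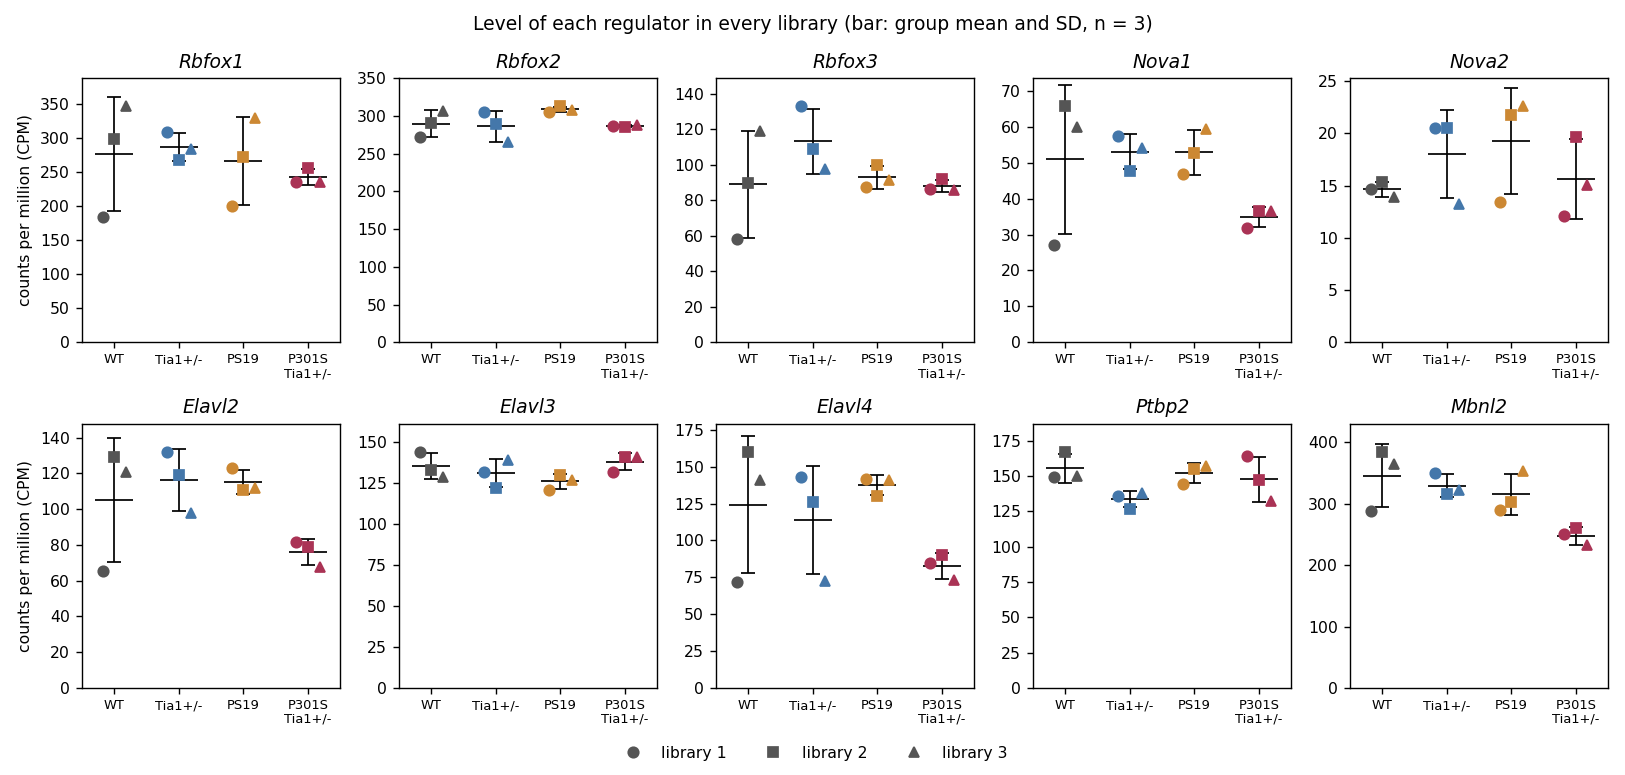
Level of each regulator in CPM (vertical axis, linear from 0) in the 3 libraries of each genotype group, with the symbol giving the replicate number and bars giving the group mean and SD. Nova1, Elavl2, Elavl4 and Mbnl2 are low in all 3 P301S Tia1+/- libraries, Nova1, Elavl2 and Elavl4 also in WT replicate 1, and Elavl3 and Rbfox2 hardly move.

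No member passed the threshold (adjusted p under 0.05) in any of the 5 pairwise comparisons, in the interaction or in the test for any difference among the 4 groups. By edgeR, PS19 and WT differed in 0 of 15440 genes (0%), P301S Tia1+/- and PS19 in 37 (0.24%), Tia1+/- and WT in 110 (0.712%), P301S Tia1+/- and WT in 203 (1.31%) and P301S Tia1+/- and Tia1+/- in 0 (0%). The interaction, that is the P301S difference in Tia1+/- mice minus that in Tia1+/+ mice, was called for 1 gene (0.00648%), and any difference among groups for 61 genes (0.395%). At an unadjusted p under 0.05 the members numbered 0 in PS19 against WT (2516 genes, 16.3%, of which 9.73% lower and 6.56% higher), 4 in P301S Tia1+/- against PS19 (2976 genes, 19.3%), 1 in Tia1+/- against WT (19.1%, of which 10.5% lower and 8.63% higher) and 1 in P301S Tia1+/- against WT (18%, of which 9.46% lower and 8.57% higher). They numbered 3 in P301S Tia1+/- against Tia1+/- (2405 genes, 15.6%, of which 6.66% lower and 8.92% higher), 1 in the interaction (22.9%, of which 9.28% lower) and 1 in the test for any difference (22.2%). By the DESeq2 Wald test, 445 genes differed between PS19 and WT, no member among them, and 404 (2.62%) between P301S Tia1+/- and Tia1+/-, Mbnl2 among them.

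The question for PS19 against WT was whether mutant tau alone shifted these regulators. The level of each of the 10 members overlapped between PS19 and WT, while the groups did not overlap for 20.8% of all genes. The log2 differences ran from -0.14 ± 0.12 (SE) for Mbnl2 to 0.39 ± 0.24 for Nova2, with a median of 0.06 over the members and -0.01 over all genes. Nova2 was 13.9 to 15.3 CPM in WT and 13.4, 21.8 and 22.6 CPM in PS19 (adjusted p = 0.44, edgeR). Within WT, replicate 1 was the lowest library for 8 of the 10 members, all but Nova2 and Elavl3. Without it, the log2 differences of Rbfox3, Nova1, Elavl2 and Elavl4 changed sign, to -0.16, -0.24, -0.11 and -0.12, and again no member was called. Rbfox3 also changed sign, to -0.01, when each library's trend on GC content and length was removed. Composition differed between PS19 and WT as well. At an unadjusted p under 0.05 (edgeR), 9 of 9 olfactory bulb markers were lower in PS19, against 9.73% of all genes. By the same rule 5 of 6 microglial and 4 of 6 oligodendrocyte markers were higher, against 6.56%. None of these markers was called, and their part in the values of the members was not tested.

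**Figure D2:**
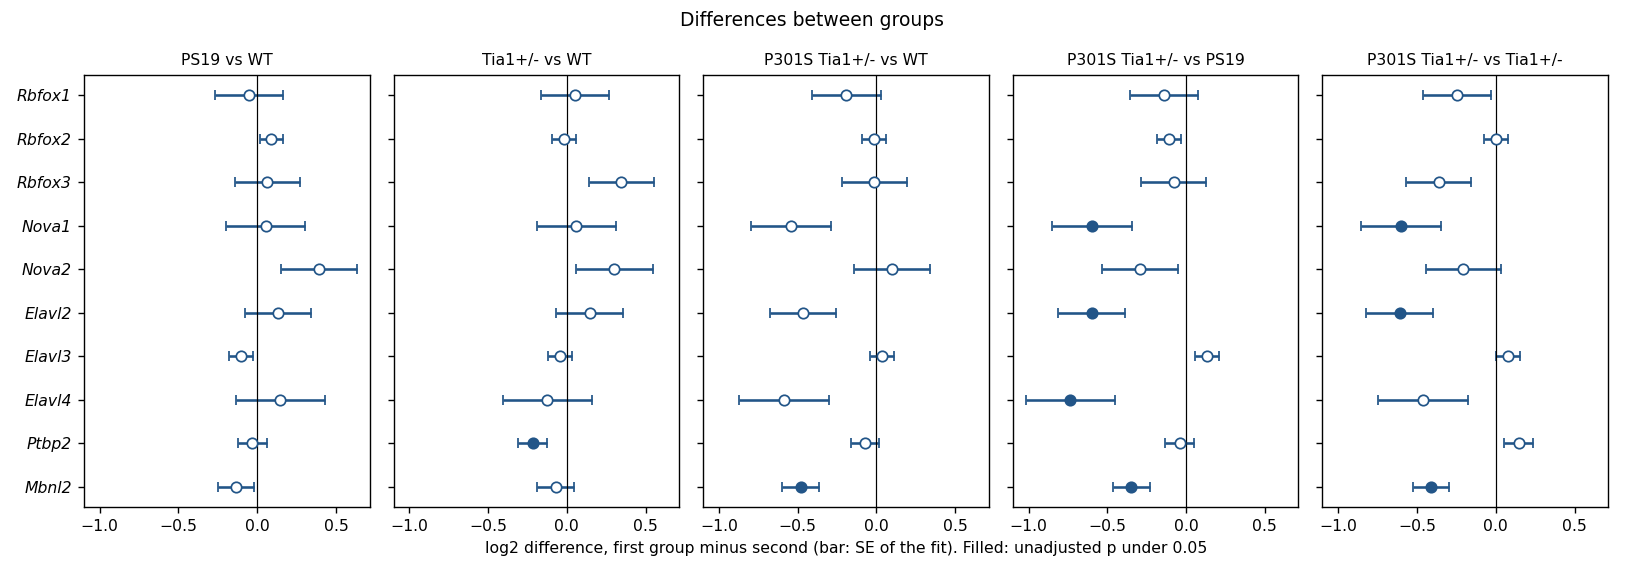
Log2 difference between groups (horizontal axis, first group minus second, with the SE of the edgeR fit as bar) for each regulator in 5 comparisons, filled where the unadjusted p was under 0.05. The differences of PS19 against WT run from -0.14 for Mbnl2 to 0.39 for Nova2, and none is filled. Those of Nova1, Elavl2, Elavl4 and Mbnl2 lie below 0 in the comparisons of P301S Tia1+/-.

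P301S Tia1+/- against PS19 asked what lower TIA1 did in tau-transgenic mice. Here 4 members, Nova1, Elavl2, Elavl4 and Mbnl2, had an unadjusted p under 0.05, and all 4 were lower in P301S Tia1+/-, against 7.62% of all genes with such a p and a lower level. None passed the adjusted threshold. The median log2 difference was -0.22 over the 10 members and 0.01 over all genes, and 9 of the 10 members were below 0. For 6 members the values of both groups lay apart, of which Rbfox2, Nova1, Elavl2, Elavl4 and Mbnl2 were lower and Elavl3 was higher. Such a separation was found for 38.5% of all genes, 18.2% lower and 20.2% higher.

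Elavl4, which encodes HuD, an mRNA-stabilising protein of postmitotic neurons, had the largest difference in size. Its level was 142, 130.0 and 141 CPM in the PS19 libraries and 84.8, 90.0 and 73.3 CPM in the P301S Tia1+/- libraries. Each P301S Tia1+/- library thus lay below each PS19 library, but WT replicate 1, at 71.6 CPM, and Tia1+/- replicate 3, at 72.7 CPM, were as low. The log2 difference was -0.73 ± 0.28 (SE), or 1.66-fold lower (unadjusted p = 0.0255, adjusted p = 0.204, edgeR).

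Elavl2, the HuB gene, also had its lowest group mean in P301S Tia1+/-. It was at 123, 111 and 112 CPM in PS19 and at 81.5, 79.0 and 67.7 CPM in P301S Tia1+/-. The groups did not overlap, and again the lowest of the other libraries was WT replicate 1 at 65.3 CPM. The log2 difference was -0.60 ± 0.21, or 1.51-fold lower (unadjusted p = 0.0166, adjusted p = 0.177, edgeR).

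Elavl3, the HuC gene and the third neuronal paralog, stood apart from these. It was at 121, 130.0 and 127 CPM in PS19 and at 132, 141 and 141 CPM in P301S Tia1+/-. The groups did not overlap, but in the other direction, with a log2 difference of 0.13 ± 0.08 (unadjusted p = 0.106, adjusted p = 0.352, edgeR). Within a library, which removes depth and scaling, the ratio of Elavl2 to Elavl3 counts was 0.857 to 1.01 in PS19 and 0.48 to 0.616 in P301S Tia1+/-, and the ratio of Elavl4 to Elavl3 counts was 0.998 to 1.18 and 0.52 to 0.641. WT replicate 1 had ratios of 0.454 and 0.497, against 0.939 to 0.976 and 1.09 to 1.21 in the other WT libraries, and Tia1+/- replicate 3 had 0.705 and 0.523, against 0.972 to 0.999 and 1.03 to 1.08. The share of Elavl3 in the summed level per kilobase of the Elavl genes was 31.7% ± 1.8 (SD, n = 3) in PS19 and 45.1% ± 2.97 in P301S Tia1+/-.

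**Figure D3:**
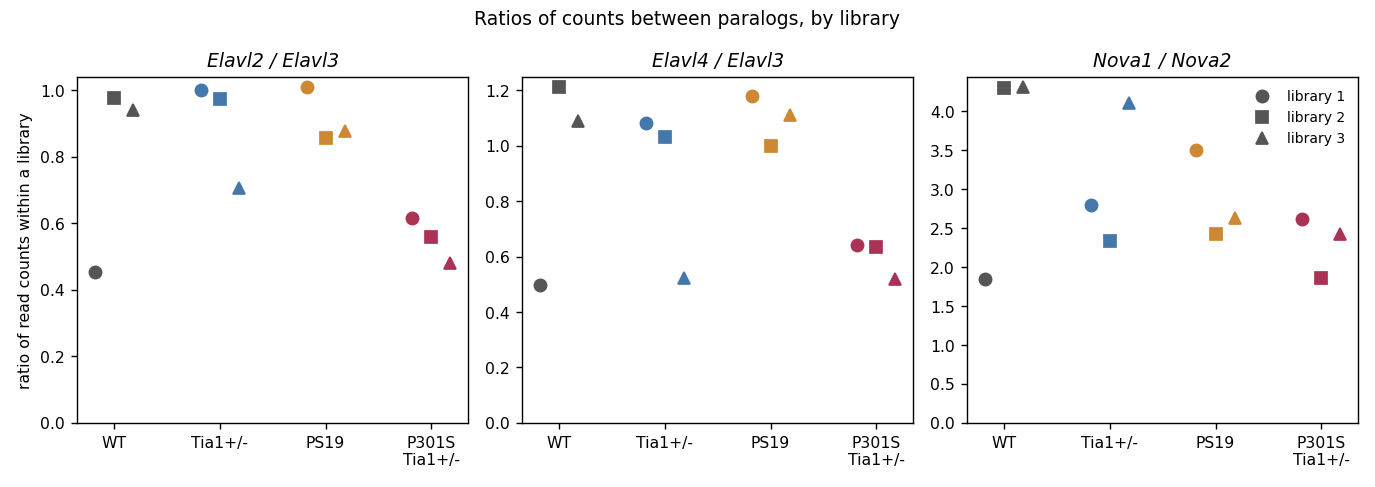
Ratio of read counts of Elavl2 to Elavl3, Elavl4 to Elavl3 and Nova1 to Nova2 within each library (vertical axis, no unit, from 0), by genotype group and replicate. The Elavl ratios are low in the 3 P301S Tia1+/- libraries, in WT replicate 1 and in Tia1+/- replicate 3, and the Nova ratios overlap between all groups.

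Nova1, which encodes a splicing regulator of neurons known as an autoantigen in a paraneoplastic disorder, was at 46.8, 52.7 and 59.4 CPM in PS19 and at 31.8, 36.7 and 36.6 CPM in P301S Tia1+/-. The groups did not overlap, and the lowest library of all was WT replicate 1 at 27.2 CPM. The log2 difference was -0.60 ± 0.25, or 1.51-fold lower (unadjusted p = 0.0381, adjusted p = 0.233, edgeR). Nova2, its paralog, overlapped between the groups, with 13.4 to 22.6 CPM in PS19 and 12.1 to 19.7 CPM in P301S Tia1+/- and a log2 difference of -0.29 ± 0.24 (adjusted p = 0.513).

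Mbnl2, a muscleblind-family splicing factor, was at 290.0, 302 and 353 CPM in PS19 and at 251, 260.0 and 232 CPM in P301S Tia1+/-. No library of P301S Tia1+/- reached the lowest library of any other group, since WT replicate 1 was at 288 CPM and the Tia1+/- libraries were at 316 to 350.0 CPM. The log2 difference to PS19 was -0.35 ± 0.12, or 1.27-fold lower (unadjusted p = 0.0125, adjusted p = 0.163, edgeR).

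The Rbfox genes moved little in this comparison. Rbfox2 was at 306, 313 and 308 CPM in PS19 and at 287, 286 and 288 CPM in P301S Tia1+/-, so that the groups did not overlap at a log2 difference of -0.11 ± 0.08 (adjusted p = 0.444, edgeR). Rbfox1 (-0.14 ± 0.22) and Rbfox3 (-0.08 ± 0.21) overlapped. Ptbp2, at 144 to 157 CPM and 132 to 164 CPM, overlapped as well, with a log2 difference of -0.04 ± 0.09 that turned to 0.16 when each library's trend on GC content and length was removed.

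The 4 lower members crossed the adjusted threshold under some settings. When the 6 libraries compared were fitted alone, Nova1, Elavl2, Elavl4 and Mbnl2 were all called lower, together with 20.1% of all genes called in either direction, and without WT replicate 1 the same 4 were called beside 10.3% of genes. Without WT replicate 1 and Tia1+/- replicate 3 they were called beside 22.9% of genes. By the DESeq2 Wald test none was called. Over the 22 alternatives tried, Elavl2 was called in 4, with adjusted p from 0.000326 to 0.438, Elavl4 in 4 (0.000125 to 0.464), Nova1 in 4 (0.00135 to 0.444) and Mbnl2 in 3 (0.00772 to 0.413), and the sign of the 4 differences was negative in all 22.

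**Figure D4:**
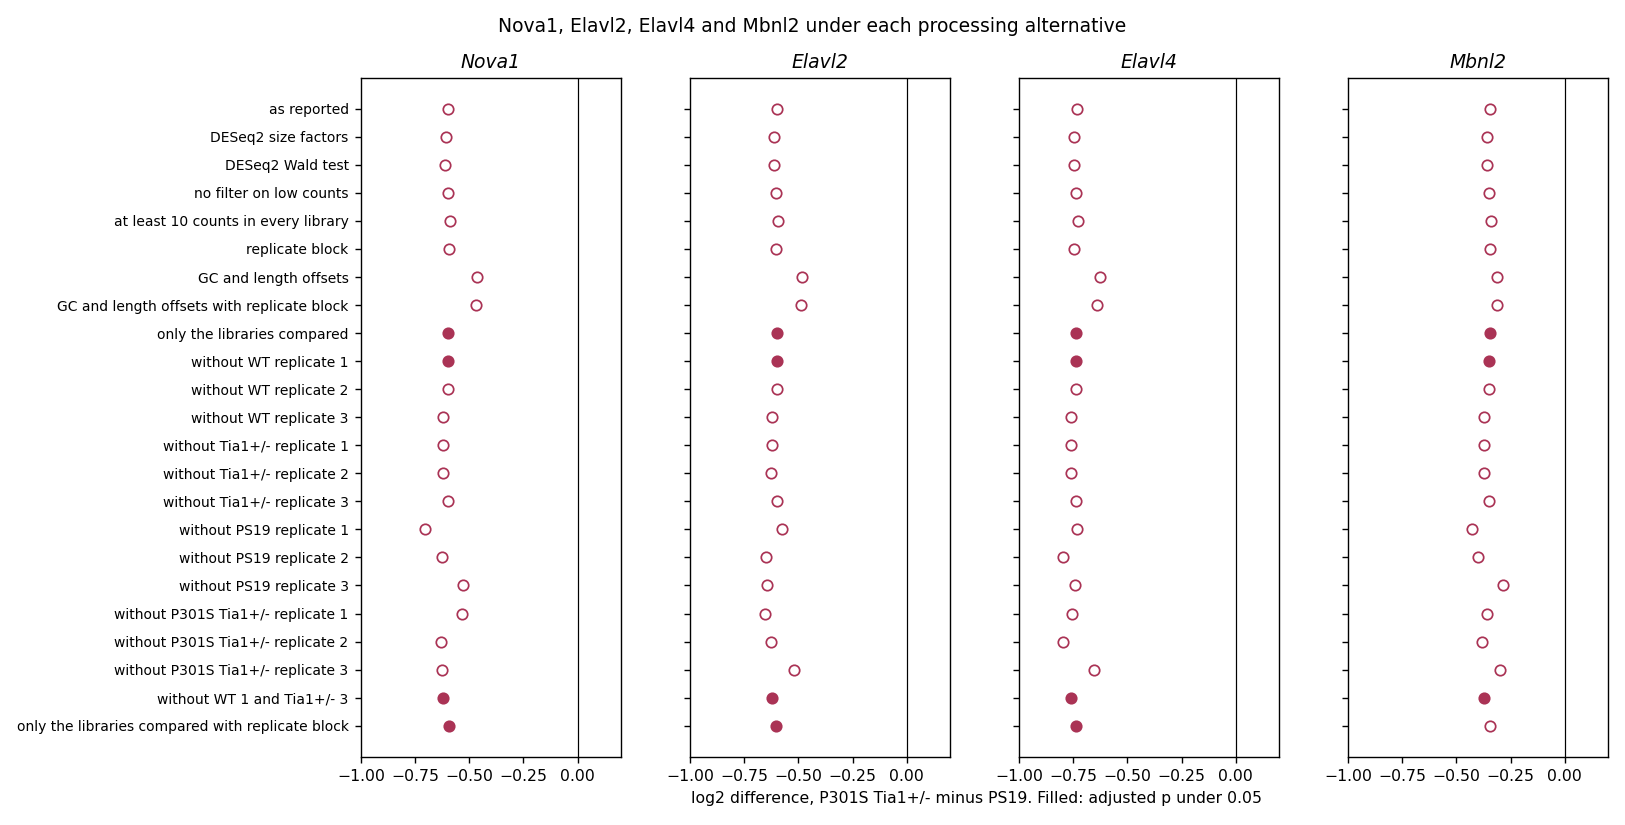
Log2 difference of Nova1, Elavl2, Elavl4 and Mbnl2 between P301S Tia1+/- and PS19 (horizontal axis) as reported and under each of the 22 alternatives (vertical axis), filled where the adjusted p was under 0.05. The differences lie at similar values below 0 throughout, and the filled points belong to fits of the 6 compared libraries alone or without WT replicate 1.

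The composition of the samples differed between P301S Tia1+/- and PS19 as well. All 9 olfactory bulb markers were higher in each P301S Tia1+/- library than in each PS19 library, with sums of 700.0, 760.0 and 840.0 CPM against 6.96, 18.6 and 9.52 CPM, and in PS19 replicates 2 and 3 each, 1 of the 9 had no count. The 9 included S100a5 and Omp of olfactory sensory axons and Eomes and Tbx21 of bulb projection neurons. The summed level of 6 inhibitory neuron markers was 1290 to 1490 CPM in P301S Tia1+/- and 685 to 805 CPM in PS19, although 3 of the 6 were lower, and that of 7 markers of cortical excitatory neurons was 846 to 1010 CPM and 1050 to 1200 CPM. General neuron markers summed to 7040 to 7950 CPM and 8170 to 9870 CPM. In WT replicate 1 the bulb markers stood at 1120 CPM and the excitatory markers at 679 CPM, and Nova1, Elavl2 and Elavl4 were there at or below their P301S Tia1+/- levels. Mbnl2, at 288 CPM in that library, lay above its 232 to 260.0 CPM in P301S Tia1+/-. In Tia1+/- replicate 3 the striatal markers stood at 2580 CPM and the excitatory markers at 553 CPM, and Elavl4 was low while Nova1 and Mbnl2 lay within the range of the other Tia1+/- libraries. Elavl2 was at 98.1 CPM there, against 132 and 119 CPM in the other Tia1+/- libraries. Astrocyte markers summed to 3420 to 3550 CPM in P301S Tia1+/- and 4110 to 5220 CPM in PS19, although 2 of the 6 were higher and 1 lower without overlap. In the same order of groups, microglial markers summed to 235 to 256 and 241 to 371 CPM. Oligodendrocyte markers summed to 2360 to 2610 and 2240 to 3830 CPM. Endothelial markers summed to 80.4 to 115 and 75.7 to 90.9 CPM, and choroid plexus markers to 2.52 to 9.1 and 10.1 to 45.6 CPM. The part of composition in the differences of these members was not tested.

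**Figure D5:**
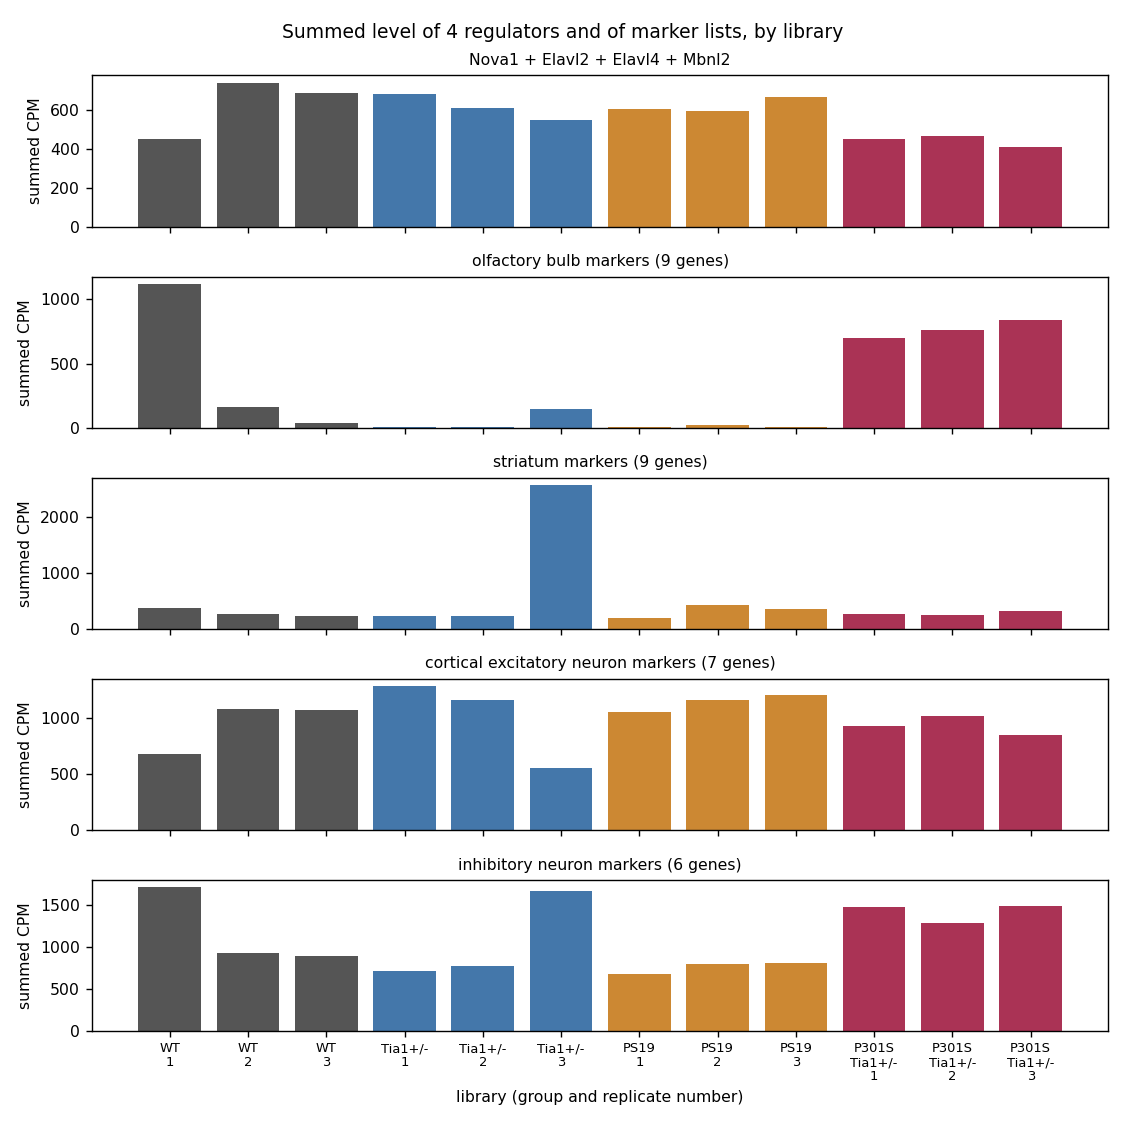
Summed CPM (vertical axes, linear from 0) of Nova1, Elavl2, Elavl4 and Mbnl2 and of 4 marker lists in each of the 12 libraries, coloured by genotype group. The 4 regulators are lowest in WT replicate 1 and the P301S Tia1+/- libraries, in which the olfactory bulb markers are highest, and the striatal markers are high in Tia1+/- replicate 3.

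The sequences upstream of 3 of the 4 lower members and of Elavl3 are shown because Elavl4, Nova1 and Mbnl2 were all lower in the P301S Tia1+/- than in the PS19 libraries, while Elavl3, a paralog of Elavl4, was not. They are the RefSeq windows of up to 250 bases before the most upstream listed start (build GRCm38.p6), written 5′ to 3′ on the gene's strand. Each is kept only up to the first base that GENCODE M21 puts in an exon of the gene itself. Exons of other genes were not looked for. Capitals mark the TATA box searched for as TATAAA, the GC box searched for as GGGCGG, and the CCAAT box, each on either strand.
Elavl4 (chr4:110351912-110352161, minus strand): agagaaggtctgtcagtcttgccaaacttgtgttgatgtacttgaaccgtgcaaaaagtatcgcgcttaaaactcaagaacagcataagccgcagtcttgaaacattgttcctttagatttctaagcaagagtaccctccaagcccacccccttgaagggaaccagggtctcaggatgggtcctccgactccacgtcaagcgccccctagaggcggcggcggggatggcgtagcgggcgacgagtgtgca
Elavl3 (chr9:22052024-22052273, minus strand): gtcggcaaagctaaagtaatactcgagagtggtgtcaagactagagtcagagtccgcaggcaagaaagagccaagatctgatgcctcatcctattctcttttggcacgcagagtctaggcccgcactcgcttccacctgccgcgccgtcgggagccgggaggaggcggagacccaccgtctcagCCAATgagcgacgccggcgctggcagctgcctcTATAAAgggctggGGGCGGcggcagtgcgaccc
Nova1 (chr12:46818930-46819017, minus strand): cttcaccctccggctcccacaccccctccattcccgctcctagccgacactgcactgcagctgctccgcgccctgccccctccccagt
Mbnl2 (chr14:120275419-120275668, plus strand): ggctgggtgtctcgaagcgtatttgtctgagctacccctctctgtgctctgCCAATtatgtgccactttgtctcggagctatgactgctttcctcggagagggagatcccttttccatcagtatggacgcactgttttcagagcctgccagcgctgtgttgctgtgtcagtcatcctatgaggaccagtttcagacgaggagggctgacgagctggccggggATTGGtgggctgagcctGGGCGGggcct

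These windows had little in common by this search. The Elavl3 window held 1 match to each of the 3 motifs and 20 CG pairs, the Elavl4 window held no match and 14 CG pairs, and the Mbnl2 window held 1 GGGCGG, 2 CCAAT and 10 CG pairs. The Nova1 stretch, which is only 88 bases long, held no match and 5 CG pairs. Neither CACGTG nor TGACGTCA was found in any of the 4. Of 27026 RefSeq windows of 250 bases, 13% held TATAAA, 33.0% GGGCGG, 34.5% CCAAT, 6.0% CACGTG and 1.6% TGACGTCA, and the median number of CG pairs was 6. A match is a run of letters and not a shown binding site. Of the 250 bases, 162 of the Nova1 window and 101 of the Elavl2 window lay in annotated exons of the gene. The Elavl2 stretch, of 149 bases, held no match and 4 CG pairs and is not printed.

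Tia1+/- against WT asked what lower TIA1 did without mutant tau. Only Ptbp2, the neuronal paralog of the polypyrimidine tract binding protein, had an unadjusted p under 0.05. It was at 149, 167 and 150.0 CPM in WT and at 136, 127 and 138 CPM in Tia1+/-, and it was the only member whose groups did not overlap, against 20% of all genes (10.4% lower and 9.6% higher). The log2 difference was -0.22 ± 0.09, or 1.16-fold lower (unadjusted p = 0.0357, adjusted p = 0.225, edgeR), and it turned to 0.06 when each library's trend on GC content and length was removed. Ptbp2 has the lowest exonic GC content of the 10 genes, 34.2%. The other log2 differences ran from -0.12 ± 0.28 for Elavl4 to 0.35 ± 0.21 for Rbfox3, and the members had a median of 0.02. Rbfox3 was at 58.3, 89.6 and 119 CPM in WT and at 133, 109 and 97.5 CPM in Tia1+/- (adjusted p = 0.39), so that the spread within each group exceeded the difference between them. The oligodendrocyte markers differed here, with 6 of 6 higher at an unadjusted p under 0.05 and Cnp called. By the same rule 8 of 9 striatal markers were higher, with 2580 CPM in Tia1+/- replicate 3. Of the olfactory bulb markers, 7 of 9 were lower in Tia1+/- by that rule, and all 9 log2 differences lay below 0. The part of these marker lists in the values of the members was not tested.

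P301S Tia1+/- against WT compared the mice with both changes with those with neither. Mbnl2 had the smallest p of the members. It was at 288, 384 and 365 CPM in WT and at 251, 260.0 and 232 CPM in P301S Tia1+/-, with no overlap, as for 23.2% of all genes (10.8% lower). The log2 difference was -0.48 ± 0.12, or 1.4-fold lower (unadjusted p = 0.00166, adjusted p = 0.064, edgeR), and the DESeq2 Wald test called it, as it did 6.48% of genes. Over 22 alternatives it was called in 3, with adjusted p from 0.000836 to 0.378. Elavl4 (-0.59 ± 0.28), Nova1 (-0.54 ± 0.25) and Elavl2 (-0.47 ± 0.21) had adjusted p of 0.309, 0.293 and 0.277, and their groups overlapped through WT replicate 1 alone. Without that library Mbnl2, Nova1, Elavl2 and Elavl4 were all called lower, beside 10.5% of genes, with log2 differences of -0.59, -0.84, -0.71 and -0.86. The other 6 members lay between -0.19 ± 0.22 for Rbfox1 and 0.10 ± 0.24 for Nova2. None of the 9 olfactory bulb markers was called by edgeR in the fit of all 12 libraries, in which their sums were 1120, 161 and 38.9 CPM in WT. Without WT replicate 1, the library at 1120 CPM, the WT sums of 161 and 38.9 CPM stood against 700.0 to 840.0 CPM in P301S Tia1+/-, so that in the fit that called the 4 members the bulb markers differed with them, and their part was not tested.

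P301S Tia1+/- against Tia1+/- showed the P301S difference in mice with 1 mutant Tia1 allele, and here sex-linked expression did not differ in kind between the groups. Nova1, Elavl2 and Mbnl2 had an unadjusted p under 0.05 and were lower in P301S Tia1+/-, as were 6.66% of all genes by the same rule. Elavl2 was at 132, 119 and 98.1 CPM in Tia1+/- and at 81.5, 79.0 and 67.7 CPM in P301S Tia1+/- (log2 difference -0.61 ± 0.21, unadjusted p = 0.015, adjusted p = 0.24, edgeR). Nova1 was at 57.4, 47.8 and 54.2 CPM in Tia1+/- and differed by -0.60 ± 0.25 (adjusted p = 0.29). Mbnl2 was at 350.0, 316 and 322 CPM and differed by -0.41 ± 0.12 (unadjusted p = 0.00477, adjusted p = 0.192). These 3 did not overlap between the groups, and neither did Rbfox1 (-0.24 ± 0.22) and Rbfox3 (-0.36 ± 0.21), against 26% of all genes, 11.1% lower. Olfactory bulb markers moved with this comparison too, with 7.62 to 148 CPM in Tia1+/- and 700.0 to 840.0 CPM in P301S Tia1+/-. At an unadjusted p under 0.05 (edgeR), 7 of 9 striatal and 4 of 6 oligodendrocyte markers were lower in P301S Tia1+/-, and none was higher. The striatal markers summed to 232 to 2580 CPM in Tia1+/-. The part of these 3 marker lists in the values of the members was not tested. Without WT replicate 1, Nova1, Elavl2 and Mbnl2 were called, beside 6.11% of genes. With the replicate number as a block, 0 members were called in the fit of all 12 libraries. In the fit of the 6 libraries, Nova1 was called without the block (2.22% of genes) and Elavl2 with it (0.964%).

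The interaction asked whether the P301S difference depended on the Tia1 label. Elavl2 had an unadjusted p under 0.05, with a log2 value of -0.74 ± 0.30 (unadjusted p = 0.0306, adjusted p = 0.178, edgeR), made of a P301S difference of 0.13 in Tia1+/+ and -0.61 in Tia1+/- mice. Nova1 (-0.66 ± 0.36), Elavl4 (-0.61 ± 0.40) and Nova2 (-0.59 ± 0.34) had values of like size with adjusted p of 0.293, 0.379 and 0.315. The median over the members was -0.35, beside 0.00 over all genes. Without WT replicate 1 and Tia1+/- replicate 3, Elavl2 and Elavl4 were called, as were 13.5% of genes. That fit dropped the WT library at 1120 CPM of bulb markers and kept the P301S Tia1+/- libraries at 700.0 to 840.0 CPM. In the fit of all 12 libraries, 9 of 9 bulb markers had a positive interaction at an unadjusted p under 0.05 (edgeR). For 8 of 9 striatal and 6 of 6 oligodendrocyte markers it was negative by the same rule. The part of composition in the interaction of the members was not tested. For the test of any difference among the 4 groups, Mbnl2 had the smallest p of the members (unadjusted p = 0.00867, adjusted p = 0.124, edgeR), and without WT replicate 1 it was called with Nova1 and Elavl2, beside 8.93% of genes.

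The wider family gave the background for the members. Of 26 relatives, among them the CELF, muscleblind, KHDRBS, CPEB and ZFP36 genes, 25 were tested and none was called by edgeR in the fit of all 12 libraries, in any pairwise comparison or the interaction. Under alternatives some were. In P301S Tia1+/- against PS19, Mbnl1 (adjusted p from 0.000253 to 0.361) and Cpeb2 (0.00156 to 0.333) were each called in 5 of 22. The share of all genes called in that comparison ran from 0.0382% to 22.9% over the alternatives. In the interaction, Ptbp3 was called in 3 of 20 (0.00629 to 0.194) and Celf2 in 2 of 20 (0.0122 to 0.18). The share of all genes called in the interaction ran from 0% to 13.5%. Of the other relatives named here, Mbnl1 was called in 3 of 22 against Tia1+/- and 2 of 22 against WT, Celf2 in 2 of 22 against Tia1+/- and 2 of 22 in Tia1+/- against WT, and Celf3 in 1 of 22 against WT. Shares of all genes called with P301S Tia1+/- ran from 0% to 23.4% against Tia1+/- and from 0.0335% to 25.8% against WT. In Tia1+/- against WT they ran from 0.0068% to 6.35%. In P301S Tia1+/- against PS19, 2 of the 25 were lower and 1 higher at an unadjusted p under 0.05 (edgeR), against 7.62% and 11.7% of all genes. The smallest p were those of Cpeb2, a regulator of cytoplasmic polyadenylation, at 65.6 ± 7.61 CPM (SD, n = 3) in PS19 and 41.4 ± 5.14 in P301S Tia1+/- (adjusted p = 0.135, edgeR), and of Mbnl1, the paralog of Mbnl2, at 169 ± 9.85 and 120.0 ± 3.25 (adjusted p = 0.142). Mbnl1 was also lower in P301S Tia1+/- than in WT (158 ± 39.3, adjusted p = 0.196), where Celf3 was higher (54.2 ± 1.92 against 38.7 ± 9.75, adjusted p = 0.253), and than in Tia1+/- (164 ± 12, adjusted p = 0.238), where Celf2 was lower too (205 ± 14.1 against 258 ± 17.8, adjusted p = 0.192). In Tia1+/- against WT, Celf2 was at 258 ± 17.8 against 203 ± 10.6 CPM (adjusted p = 0.0953) and Ptbp1, the non-neuronal paralog of Ptbp2, at 20.2 ± 2.41 against 29.2 ± 8.7 (adjusted p = 0.14). In PS19 against WT, Ptbp3 was at 49.2 ± 1.2 against 66.3 ± 20.1 (adjusted p = 0.247) and Khdrbs1 at 93.1 ± 3.87 against 116 ± 20.4 (adjusted p = 0.271). The interaction was smallest in p for Celf2 (-0.49 ± 0.13, adjusted p = 0.0837) and Ptbp3 (0.83 ± 0.23, adjusted p = 0.0888).

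Of 21 transcripts known as splicing or stability targets of these regulators, all were tested and 1 was called in 1 comparison by edgeR in the fit of all 12 libraries. Bdnf, a neurotrophin gene whose mRNA is bound by ELAVL proteins, fell by 1.77 on the log2 scale in P301S Tia1+/- against WT, from 115 ± 11.5 to 33.8 ± 5.5 CPM (SD, n = 3, adjusted p = 0.021, edgeR). In that fit and comparison 1.31% of all genes were called. The groups also differed in sex-linked expression and, WT replicate 1 aside, in olfactory bulb markers, and the part of these was not tested. The Bdnf call was kept in 15 of 22 alternatives (adjusted p from 6.2e-07 to 0.121) and was lost in the fits with the replicate block and in those without WT replicate 2 or any 1 of the P301S Tia1+/- libraries. Its level was 48.2 ± 21 CPM in Tia1+/- (adjusted p = 0.067 against WT) and 65.6 ± 13 CPM in PS19 (adjusted p = 0.217 against WT and 0.135 against P301S Tia1+/-). The targets with the smallest p otherwise were Camk2b in P301S Tia1+/- against PS19 (0.51 ± 0.14, adjusted p = 0.11), Tanc2 (-0.51 ± 0.14, adjusted p = 0.183) and Nfasc (-0.42 ± 0.15, adjusted p = 0.249) in P301S Tia1+/- against Tia1+/-, Nfasc in Tia1+/- against WT (0.48 ± 0.15, adjusted p = 0.134), and Gap43, a classical ELAVL target, in PS19 against WT (0.58 ± 0.16, adjusted p = 0.172). In the interaction they were Gap43 (-0.85 ± 0.23, adjusted p = 0.0828) and Nfasc (-0.69 ± 0.22, adjusted p = 0.11). Under alternatives, Camk2b (adjusted p from 0.000444 to 0.307) and Bdnf (0.000871 to 0.383) were each called in 5 of 22 in P301S Tia1+/- against PS19, and Tanc2 in 3 of 22 (0.00257 to 0.426) and Nfasc in 1 of 22 (0.00934 to 0.539) in P301S Tia1+/- against Tia1+/-. Over the alternatives, 0.0382% to 22.9% of all genes were called against PS19 and 0% to 23.4% against Tia1+/-. Bdnf was called in 2 of 22 in Tia1+/- against WT, Gap43 in 1 of 22 in PS19 against WT, and Gap43 and Nfasc each in 2 of 20 in the interaction. The shares of all genes called in these ran, in turn, from 0.0068% to 6.35%, 0% to 2.89% and 0% to 13.5%. The table counts genes and not exons, so the splicing of these targets was not measured here.

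For each member the gene closest to it in level across the 12 libraries is named as its companion. This is a description over libraries that share their depth scaling and their regional composition. Each r is the highest picked from many genes, so its size was not tested. Among the 15430 other genes tested, the highest Pearson r of log2 CPM was with Adam23 for Rbfox1 (0.938), Clec18a for Rbfox2 (0.948), Pnkd for Rbfox3 (0.959), Pitpnc1 for Nova1 (0.968) and Nlgn2 for Nova2 (0.931). It was with Socs5 for Elavl2 (0.976), Tnks for Elavl3 (0.935), Rab6a for Elavl4 (0.986), Tmem167 for Ptbp2 (0.913) and Mark1 for Mbnl2 (0.98). Among the members themselves, r was 0.905 between Elavl2 and Elavl4, 0.885 between Elavl2 and Nova1, 0.83 between Nova1 and Mbnl2, and -0.771 between Elavl3 and each of Elavl2 and Elavl4.

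The reads behind these values could mostly be placed. In GENCODE M21 transcripts, 6 of the 10 members, Rbfox1, Rbfox2, Rbfox3, Elavl2, Elavl4 and Ptbp2, shared no 50-base word with a transcript of another gene on either strand, and no member shared such a word with another member. The shared part was 0.39% for Mbnl2, 3.0% for Nova1 and 3.13% for Elavl3. For Nova2 it was 30.76%, almost all with the antisense gene Gm26821, which has no row in the count table, and since the strand setting of the counting is not given in the sources used here, Nova2 is the member whose count is least certain.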

How the data were processed

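RNA of cortex was sequenced as stranded total RNA, paired-end. The authors aligned the reads to mm10 (TopHat2 2.0.6 in the submitters' processing notes) and deposited 1 table of raw counts per gene from featureCounts; annotation, strand setting and the handling of multi-mapped reads are not given in the sources used here. No column was left unused (0). The members and gene lists were chosen with earlier results of these data known. Named were all members, of the relatives and targets those called (up to 5) or otherwise the 2 with the smallest p, and the 1 companion gene per member. Counts were scaled by TMM and tested with the edgeR 4.0.16 quasi-likelihood test (R 4.3.3) after filterByExpr, with all 12 libraries in 1 fit and Benjamini-Hochberg adjustment over 15440 genes. CPM used TMM library sizes. With 3 libraries a group, an exact permutation test cannot go below p = 0.1. No source ties libraries to mice beyond their numbers, so p-values measure the spread between libraries. Lengths, GC content and overlaps came from GENCODE M21 (23666 of 24062 symbols found, 916 through an older symbol; all 10 members found), and 9 of 10 members had a RefSeq promoter window. The fits were tested on simulated counts. Correlations of same-numbered deviations from the group means were all positive only for Tia1+/- with P301S Tia1+/- (0.123, 0.134 and 0.24). Over all 18 pairs they ran from -0.538 to 0.346 with a median of -0.0597. Libraries of different number were not compared, so whether the replicate numbers pair libraries was not shown. No libraries were duplicates. Alternatives were DESeq2 1.42.0 and its size factors, other filters, the block, GC and length offsets, the 6 compared libraries alone and each library left out.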

Additional observations from a re-analysis of the deposited data

How the results depend on the processing

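Of the members, 1 (Mbnl2) was called by the DESeq2 Wald test in P301S Tia1+/- against WT (6.48% of all genes), in P301S Tia1+/- against Tia1+/- (2.62%) and in any difference (12%). With the compared libraries alone, 4 were called in P301S Tia1+/- against PS19 (20.1%) and 1 in P301S Tia1+/- against Tia1+/- (2.22%), and with the replicate block added to that fit, chosen after seeing the data, 3 (16.2%) and 1 (0.964%). Without WT replicate 1 and Tia1+/- replicate 3, 4 were called against PS19 (22.9%), 4 against WT (25.8%), 5 against Tia1+/- (23.4%), 2 in the interaction (13.5%) and 5 in any difference (29.3%). With 1 library left out the ranges were 0 to 4 (against PS19), 0 to 4 (against WT), 0 to 3 (against Tia1+/-) and 0 to 3 (any difference), the highest each without WT replicate 1 (10.3%, 10.5%, 6.11% and 8.93% of all genes). The cause was not tested. The block in the fit of 12 libraries changed no member's call, 0 remaining called, and 7 of 18 same-numbered pairs correlated above 0.1. These log2 differences changed sign, all of members not called in either fit. With DESeq2 size factors, they became -0.011 for Rbfox2 in P301S Tia1+/- against Tia1+/-. By the DESeq2 Wald test, they became -0.011 for Rbfox2 in P301S Tia1+/- against Tia1+/-. With no filter on low counts, they became -0.006 for Rbfox2 in P301S Tia1+/- against Tia1+/-. With the replicate block, they became 0.002 for Rbfox3 in P301S Tia1+/- against WT. With GC and length offsets, they became -0.008 for Rbfox3, 0.084 for Ptbp2 in PS19 against WT, 0.163 for Ptbp2 in P301S Tia1+/- against PS19, 0.059 for Elavl4, 0.063 for Ptbp2 in Tia1+/- against WT, -0.025 for Elavl3, 0.247 for Ptbp2 in P301S Tia1+/- against WT. With GC and length offsets and the replicate block, they became 0.084 for Ptbp2 in PS19 against WT, 0.164 for Ptbp2 in P301S Tia1+/- against PS19, 0.06 for Elavl4, 0.064 for Ptbp2 in Tia1+/- against WT, -0.024 for Elavl3, 0.247 for Ptbp2 in P301S Tia1+/- against WT. With the compared libraries alone, they became -0.005 for Rbfox2 in P301S Tia1+/- against Tia1+/-. Without WT replicate 1 and Tia1+/- replicate 3, they became -0.166 for Rbfox3, -0.244 for Nova1, -0.114 for Elavl2, -0.126 for Elavl4 in PS19 against WT, -0.17 for Rbfox1, -0.263 for Nova1, -0.003 for Elavl2 in Tia1+/- against WT, -0.066 for Rbfox2 in P301S Tia1+/- against Tia1+/-, 0.005 for Rbfox1 in the interaction. With the compared libraries alone and the replicate block, they became 0.035 for Rbfox3 in P301S Tia1+/- against WT, -0.003 for Rbfox2 in P301S Tia1+/- against Tia1+/-. With 1 library left out, the ranges in PS19 against WT were -0.109 to 0.308 for Elavl2, -0.121 to 0.373 for Elavl4, -0.239 to 0.281 for Nova1, -0.052 to 0.027 for Ptbp2, -0.265 to 0.16 for Rbfox1, -0.159 to 0.348 for Rbfox3. Those in Tia1+/- against WT were -0.092 to 0.32 for Elavl2, -0.081 to 0.019 for Elavl3, -0.388 to 0.125 for Elavl4, -0.172 to 0.011 for Mbnl2, -0.227 to 0.286 for Nova1, -0.156 to 0.259 for Rbfox1, -0.066 to 0.042 for Rbfox2. Those in P301S Tia1+/- against WT were -0.01 to 0.089 for Elavl3, -0.104 to 0.25 for Nova2, -0.153 to 0.006 for Ptbp2, -0.053 to 0.016 for Rbfox2, -0.239 to 0.245 for Rbfox3. Those in P301S Tia1+/- against PS19 were -0.123 to 0.033 for Ptbp2, -0.337 to 0.013 for Rbfox1, and in the interaction were -0.424 to 0.014 for Rbfox1. Those in P301S Tia1+/- against Tia1+/- were -0.056 to 0.031 for Rbfox2. With 3 libraries a group and 11978962 to 19146484 counts a library, small differences of members such as Nova2 (from 181 counts) are limited by the spread between libraries and by depth.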
